A study of Mus musculus with 30 samples.

Results

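Retinas of mice given bromocriptine before bright light were compared with retinas of mice never shown the bright light, to describe what remained of the light response 24 h after the exposure. The comparison rests on 6 of the 30 libraries of the series: 3 after bromocriptine and light (BRM) and 3 from animals that received the solvent DMSO and no bright light (no light). The libraries were chosen by their labels alone. All animals of the series were Abca4-/-Rdh8-/- on a C57BL/6J background and 4 to 6 weeks old, of both sexes, and were housed in cycles with 12 h of dim light of at most 10 lux. Animals of the BRM group were injected into the peritoneum 30 min before 30 min of light at 10000 lux. A group that received DMSO and then the same light (light, 3 libraries) and groups that received metoprolol (MTP), tamsulosin (TAM) or doxazosin (DOX) before light belong to the same single-drug experiment, and 12 further libraries belong to a mixture experiment that was run and analysed separately, per the labels. No group received bromocriptine without light. None of the groups is wild type, so the values say nothing of retinas with working Abca4 and Rdh8. The dose is not given in the sources used here.

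Abca4 encodes the transporter, and Rdh8 a dehydrogenase, that remove all-trans-retinal, the spent chromophore of the visual pigments, from photoreceptor outer segments. Retinas that lack both accumulate it after intense light, and their rods and cones degenerate. Bromocriptine activates D2-type dopamine receptors, which act through inhibitory G proteins and lower cyclic AMP. In the retina dopamine comes from a class of amacrine cells, and photoreceptors carry the D4 receptor, a member of the D2 type.

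Rod, cone, Müller glia, bipolar, amacrine and ganglion cell markers were present in all 6 libraries, as the label neural retina says. Total gene counts were 18.2 to 21.7 M in the BRM libraries and 20.4 to 22.1 M without light. Lens transcripts were present in every library and uneven. A score of lens fibres, averaged over the log2 CPM (counts scaled to library size) of Mip, Lim2, Bfsp1, Bfsp2, Grifin and Gja3, was 6.53, 6.14 and 7.85 in the BRM libraries, against 6.61, 3.36 and 3.17 without light. All 3 BRM libraries and no-light replicate 1 were thus rich in lens RNA, and no-light replicates 2 and 3 were poor in it. Fibroblast and pigment epithelium markers were also highest in BRM replicate 1 and no-light replicate 1. Microglia markers summed to 8.05 to 9.53 CPM in the BRM libraries and 7.70 to 10.6 CPM without light, and the monocyte marker Ccr2 was at 0 in all 6. The labels do not say whether the 3 libraries of a group are 3 animals, so p-values measure the spread between libraries, which may be technical. In whole retina, fewer cells of a type and less RNA per cell cannot be told apart.

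In the BRM retinas the interferon genes that rose after light alone were near the no-light level, while photoreceptor genes stood part of the way between the light and no-light groups. Over 28 interferon and MHC class I genes the median log2 fold change against no light was 0.21 in BRM and 2.46 in light. Over 31 rod genes it was -0.43 in BRM and -1.14 in light, and each of the 31 was negative in BRM, as were 48.2% of all genes (51.8% were positive). Both groups share the no-light libraries, so these values stand side by side and their likeness is no result. No single gene passed the test of BRM against no light. Of 16249 genes tested with edgeR's quasi-likelihood method, 0 (0%) had a Benjamini-Hochberg adjusted p under 0.05 and the smallest was 0.0502. At an unadjusted p under 0.05 there were 2535 genes (15.6%), 912 higher (5.61%) and 1623 lower (9.99%). DESeq2 called 381 genes in the same counts, 69 higher and 312 lower, limma voom called 1, and limma on the authors' FPKM called 1 of 18483 transcripts. Of the genes DESeq2 called, 380 differed by less than 2-fold. It gave no adjusted p for 6003 of the genes tested.

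The difference from light was plain in the same fit. Between BRM and light 2341 genes differed (14.4%), 1151 higher (7.08%) and 1190 lower (7.32%) in BRM, and between light and no light 3895 (24.0%), 1846 higher (11.4%) and 2049 lower (12.6%) in light. With 1 library left out the count between BRM and light was 910 without light replicate 2, 978 without BRM replicate 2, 1254 without light replicate 1, 1336 without BRM replicate 3 and 1498 without BRM replicate 1, and that between light and no light was 2550 without light replicate 2. The absence of calls against no light does not show that the groups were alike. The 95% interval of the log2 fold change lay within 2-fold in either direction for 12172 genes (74.9%) and within 1.5-fold for 8811 (54.2%). In counts simulated for this comparison the test recovered 93.9% of 4-fold, 76.1% of 2-fold and 41.8% of 1.5-fold changes. The changes were placed only in genes above a minimum mean count, so these rates do not cover genes with few counts. Each gene was simulated independently, without a shared shift between libraries such as uneven lens RNA. The libraries of the 2 groups did not overlap at all for 4104 genes (25.3%), higher in BRM for 1656 (10.2%) and lower for 2448 (15.1%).

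**Figure D1:**
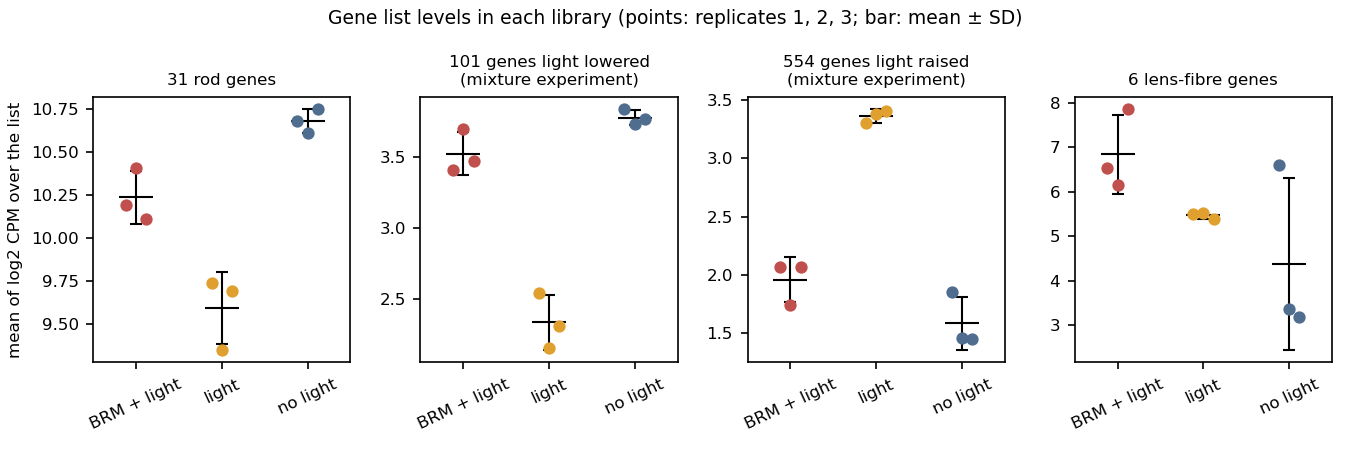
Mean log2 CPM over 4 gene lists in each library of the BRM, light and no-light groups (points are replicates 1 to 3, bars mean ± SD). The rod list stood at 10.2, 10.4 and 10.1 in BRM, 9.74, 9.35 and 9.69 in light and 10.7, 10.6 and 10.7 without light, while the genes raised by light in the mixture experiment stood at 2.07, 1.74 and 2.07 in BRM, 3.30, 3.38 and 3.41 in light and 1.85, 1.46 and 1.45 without light.

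Rod genes stood below no light in BRM by similar amounts. Of 32 listed genes 31 passed the filter on low counts (Faim3 did not), and their log2 fold changes in BRM against no light ran from -0.58 to -0.25. None was called by edgeR, 24 were lower at an unadjusted p under 0.05 and 29 had all 3 BRM libraries below all 3 no-light libraries, beside 9.99% and 15.1% of all genes. DESeq2 called 9 of the rod genes lower, beside 312 of all 16249 genes, 6003 of which had no adjusted p there. Against light, 24 of the 31 were higher in BRM and 2 were lower, beside 7.08% and 7.32% of all genes. No-light replicate 1, rich in lens RNA, stood at 10.7 log2 CPM on the rod list, beside 10.6 and 10.7 in no-light replicates 2 and 3. In BRM replicates 1, 2 and 3 the rod list stood at 10.2, 10.4 and 10.1, and the lens-fibre score at 6.53, 6.14 and 7.85. Within BRM the rod level was thus lower where the score was higher. With the lens-fibre score as a covariate the median was -0.36 and all 31 stayed negative. All 3 BRM libraries were rich in lens RNA, and the part of lens RNA in the rod values was not tested further.

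Gucy2e and Gucy2f encode the guanylate cyclases that restore cyclic GMP in photoreceptors after a light response. Gucy2e (ENSMUSG00000020890, chromosome 11, 69218117 to 69237036 in GRCm38) had 727, 792 and 651 CPM in the BRM libraries, 564, 448 and 549 CPM after light and 1072, 1066 and 1063 CPM without light. The 3 groups did not overlap, with BRM between the others. Its log2 fold change in BRM against no light was -0.56 ± 0.12 (SE; 95% interval -0.82 to -0.30; adjusted p = 0.114), and against light it was 0.48 (adjusted p = 0.0185). Gucy2f had 404, 455 and 376 CPM in BRM, 251, 201 and 214 CPM after light and 612, 561 and 656 CPM without light, the same order without overlap. Its log2 fold change was -0.57 ± 0.15 against no light (adjusted p = 0.127) and 0.89 against light (adjusted p = 0.00203).

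The promoters of both cyclases are shown to set 2 rod genes of the same role side by side, a choice made after their values were seen. Each is 250 bases before to 50 after the gene start, from RefSeq on GRCm38.p6, read 5′ to 3′ on the minus strand (chr11:69236973-69237272 for Gucy2e and chrX:142196887-142197186 for Gucy2f). Capitals mark TAATCC on either strand, the core that the photoreceptor factor CRX is known to bind.
Gucy2e: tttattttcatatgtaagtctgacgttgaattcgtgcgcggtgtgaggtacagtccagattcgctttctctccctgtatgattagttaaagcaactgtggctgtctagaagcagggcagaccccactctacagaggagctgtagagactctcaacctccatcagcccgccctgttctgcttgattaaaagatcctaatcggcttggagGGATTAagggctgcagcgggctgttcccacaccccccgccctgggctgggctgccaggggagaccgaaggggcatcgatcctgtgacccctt
Gucy2f: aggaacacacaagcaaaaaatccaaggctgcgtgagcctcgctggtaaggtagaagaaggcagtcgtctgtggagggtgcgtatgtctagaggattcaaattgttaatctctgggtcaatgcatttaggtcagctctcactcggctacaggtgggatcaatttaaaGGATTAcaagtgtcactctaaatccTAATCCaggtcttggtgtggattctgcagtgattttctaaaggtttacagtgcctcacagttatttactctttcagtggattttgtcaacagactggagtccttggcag
The Gucy2e promoter holds 1 such match and that of Gucy2f 2. The letters occur in 9 of the 22 rod promoters in the table (40.9%), in 3 of the 23 promoters of interferon and MHC class I genes (13%) and in 7.06% of all 32851 promoters of this length. A match is a stretch of letters and not a measured binding site.

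Gnat1, the G protein subunit of rod phototransduction, had 11347, 13315 and 10506 CPM in BRM, 6705, 4984 and 6761 CPM after light and 16602, 16077 and 17453 CPM without light. Every BRM library lay above every light library and below every no-light library, at -0.51 from no light (adjusted p = 0.196) and 0.93 from light (adjusted p = 0.00359). Gnat1 was not in the naming rule and was added after its values were seen.

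The 2 disrupted genes are themselves rod genes whose transcripts were still counted. Abca4 had 566, 668 and 552 CPM in BRM, 374, 319.8 and 367 CPM after light and 693, 774 and 821 CPM without light, with no overlap between groups, at -0.36 from no light (adjusted p = 0.222) and 0.75 from light (adjusted p = 0.00274). Rdh8 had 27.4, 32.2 and 24.8 CPM in BRM, 24.6, 19.4 and 25.4 CPM after light and 40.1, 34.6 and 32.7 CPM without light. Its BRM libraries lay below all no-light libraries and overlapped the light libraries. Counts of whole genes without a wild type do not test the genotype.

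Other rod genes stood in BRM near the level after light. Impg1, which encodes a proteoglycan of the matrix around photoreceptors, had 554, 589 and 476 CPM in BRM, 549, 452 and 525 CPM after light and 750.1, 766 and 875 CPM without light. BRM and light overlapped and both lay below no light, and the 95% interval of the BRM minus light difference was -0.18 to 0.35 in log2 units. Prom1, a protein of outer segment discs, had 937, 1065 and 879 CPM in BRM, 885, 755 and 833 CPM after light and 1338, 1151 and 1384 CPM without light, with a BRM minus light interval of -0.03 to 0.47. DESeq2 called Gucy2e, Gucy2f, Impg1 and Prom1 lower in BRM than without light, with adjusted p of 0.00216, 0.0136, 0.00316 and 0.0177.

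Impg2 and Samd7 departed from the list, and were picked out after their values were seen. Impg2, the other interphotoreceptor proteoglycan of the list, had 592, 622 and 558 CPM in BRM, 1769, 1291 and 1641 CPM after light and 805, 1020.5 and 823 CPM without light. Light was above no light (0.83, adjusted p = 0.0128), whereas BRM was below both groups, -1.41 from light (adjusted p = 0.00177) and -0.58 from no light (adjusted p = 0.234). Samd7, a Polycomb-associated repressor in rods, had 97.9, 99.9 and 95 CPM in BRM, 182, 129 and 149 CPM after light and 127, 135 and 148 CPM without light, and differed from light by -0.65 (adjusted p = 0.0441).

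**Figure D2:**
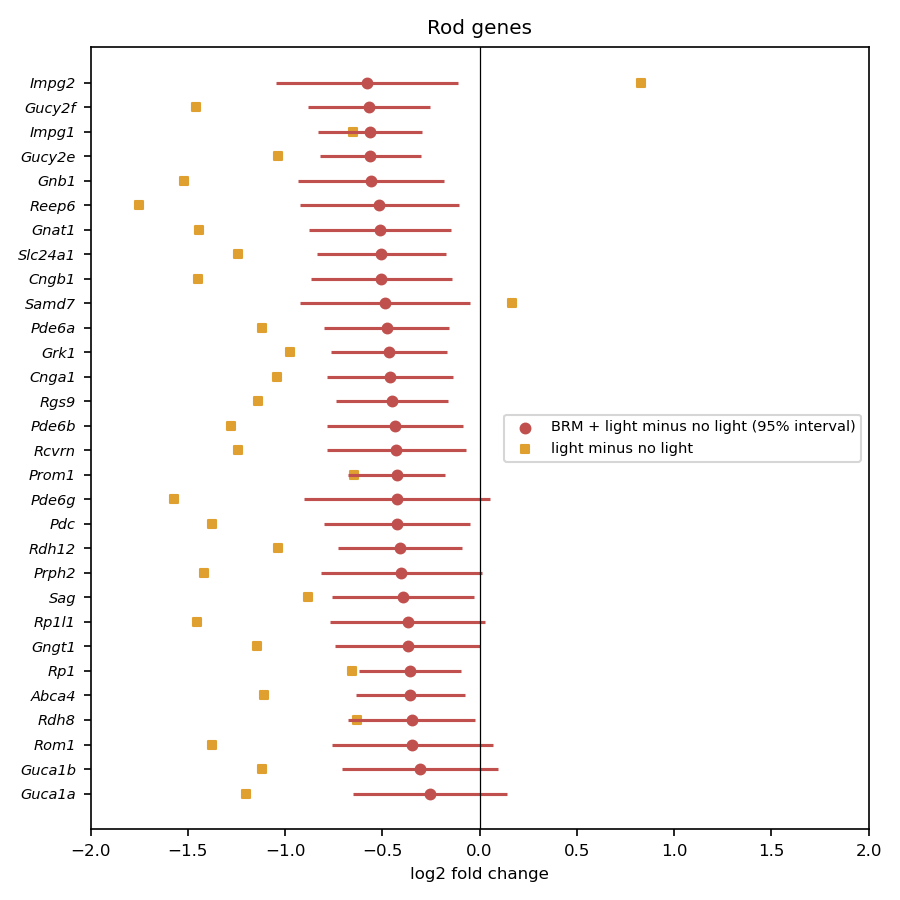
Log2 fold change of the rod genes named on the vertical axis, in BRM against no light with its 95% interval (circles) and in light against no light (squares), ordered by the BRM value. All BRM values lie between -0.58 and -0.25, and the light values spread more widely, with Impg2 above 0 at 0.83.

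Cone genes were less uniform than rod genes. The 17 listed genes had a median of -0.35 in BRM and -0.79 in light against no light. In BRM 15 were negative, 7 were lower at an unadjusted p under 0.05 and 11 had libraries wholly below no light (beside 9.99% and 15.1% of all genes), and 1 (Rxrg, a nuclear receptor of cones) wholly above. Against light, 10 were higher in BRM and 3 lower, beside 7.08% and 7.32% of all genes. With the lens-fibre score as a covariate the cone median was -0.23.

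The cone opsins followed the rod pattern. Opn1sw, the short-wavelength opsin, had 554, 615 and 431 CPM in BRM, 210.0, 128 and 199.7 CPM after light and 659, 740.1 and 738 CPM without light. It was -0.42 from no light (95% interval -0.94 to 0.10; adjusted p = 0.421) and higher than after light by 1.57 (adjusted p = 0.00177). Opn1mw, the middle-wavelength opsin, had 107, 128 and 106 CPM in BRM, 63, 51.9 and 62.7 CPM after light and 157, 141 and 161 CPM without light, at -0.43 from no light (adjusted p = 0.181) and 0.94 from light (adjusted p = 0.00135). In both opsins the 3 groups did not overlap and BRM lay between the others.

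Other cone genes took another course. Pde6c, the cone phosphodiesterase, had 89, 97.2 and 79.4 CPM in BRM, 159, 163 and 154 CPM after light and 131, 109.5 and 129 CPM without light. It rose after light (0.37, adjusted p = 0.0293), was lower in BRM than after light (-0.84, adjusted p = 0.000861) and stood at -0.48 from no light (adjusted p = 0.123 with edgeR and 0.0121 with DESeq2). Cnga3, a subunit of the cone channel, had 12.1, 15.6 and 12.1 CPM in BRM, 15.9, 16.6 and 17.4 CPM after light and 17.9, 16.5 and 17.5 CPM without light. Gnb3, the cone G protein subunit that bipolar cells also use, had 229, 243 and 233 CPM in BRM, 458, 404 and 526 CPM after light and 244, 256 and 250.2 CPM without light, so that BRM was just below no light and lower than light (-0.98, adjusted p = 0.00552). Thrb, the thyroid hormone receptor that sets cone opsin choice, had 90.9, 92.1 and 73.4 CPM in BRM and 121, 107 and 119.7 CPM without light, with no overlap (-0.44, adjusted p = 0.123 with edgeR and 0.0187 with DESeq2).

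The transcription factors that maintain photoreceptors also had values below no light. All 13 tested had a negative log2 fold change in BRM, with a median of -0.46 against -1.07 in light. Of the 13, 12 had BRM libraries wholly below no light and 9 were lower at an unadjusted p under 0.05, beside 15.1% and 9.99% of all genes. Against light 7 were higher and 2 lower, beside 7.08% and 7.32% of all genes. Rorb, an orphan nuclear receptor of photoreceptors, had 281, 337 and 275 CPM in BRM, 218, 196 and 180.3 CPM after light and 447, 413 and 441 CPM without light. It lay between the groups, -0.54 from no light (adjusted p = 0.112 with edgeR and 0.00252 with DESeq2) and 0.59 from light (adjusted p = 0.00519).

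Nrl, which commits photoreceptor precursors to the rod fate, had 1902, 2209 and 1778 CPM in BRM, 1067, 774 and 937 CPM after light and 2711, 2646 and 2921 CPM without light. Nr2e3, which holds cone genes silent in rods, had 426, 536 and 417 CPM in BRM, 205, 139 and 193 CPM after light and 575, 635 and 689 CPM without light. Crx, which drives rod and cone genes, had 950.3, 1159.9 and 940.5 CPM in BRM, 689, 560.2 and 590.1 CPM after light and 1406, 1372 and 1411 CPM without light. In all 3 factors the groups did not overlap and BRM lay in the middle, with log2 fold changes against no light of -0.49 for Nrl, -0.46 for Nr2e3 and -0.46 for Crx (adjusted p = 0.21, 0.33 and 0.197) and against light of 1.08, 1.36 and 0.73 (adjusted p = 0.0019, 0.00197 and 0.00707). Nrl and Crx were added after their values were seen.

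Mef2c, Esrrb and Ncoa1 complete the 4 members with the smallest p. Mef2c had 133, 168 and 135 CPM in BRM and 203, 204 and 218 CPM without light, and Esrrb 458, 533 and 413 CPM in BRM and 687, 634 and 622 CPM without light, both without overlap and both above light (adjusted p = 0.00494 and 0.000891). Ncoa1, a coactivator of nuclear receptors, had 180.2, 199 and 183 CPM in BRM, 180.2, 188 and 171 CPM after light and 223, 226 and 227 CPM without light, so BRM overlapped light and lay below no light. Neurod1, a factor that photoreceptors need to survive and picked out after its values were seen, rose after light (0.72, adjusted p = 0.00411) and had 335, 357 and 336 CPM in BRM, 642, 585 and 582 CPM after light and 373, 364 and 359.8 CPM without light.

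The interferon and MHC class I genes stood near no light in BRM and far above it in light. These genes carry the response to interferons, from transcription factors such as Irf1 to the peptide loading of MHC class I molecules. All 28 listed genes were tested. In light 26 rose, and 26 were lower in BRM than in light, beside 11.4% and 7.32% of all genes. Against no light the BRM median was 0.21, with 23 positive and 5 negative values. The libraries of BRM and no light overlapped for 24 of the 28 and were wholly higher in BRM for 4, beside 10.2% of all genes. For 27 of the 28 the upper end of the BRM interval lay below the estimate for light. The median was 0.44 without no-light replicate 1, 0.14 without no-light replicate 2, 0.13 without BRM replicate 1 and 0.35 without BRM replicate 2.

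Nlrc5, the transactivator of MHC class I genes, had 0.530, 0.279 and 1.07 CPM in BRM, 10.6, 15.1 and 14.7 CPM after light and 0.302, 0.186 and 0.263 CPM without light. The BRM and no-light libraries overlapped and all BRM libraries were far below light. It was lower than after light (-4.39, adjusted p = 0.0019), and its difference from no light was poorly fixed at 1.33 (95% interval -0.46 to 3.12; adjusted p = 0.458). Irf7, a factor that amplifies type I interferon, had 8.14, 9.95 and 9.42 CPM in BRM, 33, 29.1 and 43.9 CPM after light and 12.5, 13.2 and 8.96 CPM without light, also with overlap between BRM and no light. Psmb10, a subunit of the immunoproteasome, had 4.24, 3.74 and 4.85 CPM in BRM, 6.0, 5.75 and 10 CPM after light and 3.62, 2.88 and 3.0 CPM without light, and Tap2, a subunit of the peptide transporter, had 4.87, 5.81 and 5.31 CPM in BRM, 9.02, 9.99 and 11.6 CPM after light and 4.23, 3.62 and 2.79 CPM without light. Psmb10 and Tap2 were 2 of the 4 members with BRM libraries wholly above no light, and both were below light (adjusted p = 0.044 and 0.0273). Isg15, a ubiquitin-like interferon product, had 1.83, 0.894 and 0.280 CPM in BRM, 2.81, 2.97 and 3.44 CPM after light and 3.32, 1.30 and 1.79 CPM without light.

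Igtp, Irgm2 and Irf1, the last a transcription factor and the others interferon-induced GTPases, are shown with their promoters, again chosen after their values were seen and because the table holds them. Igtp had 2.75, 0.894 and 3.92 CPM in BRM, 21.8, 19.7 and 25.8 CPM after light and 1.86, 1.67 and 2.0 CPM without light. Irgm2 had 1.49, 1.29 and 0.559 CPM in BRM, 13.7, 17.3 and 23.6 CPM after light and 2.67, 2.0 and 0.211 CPM without light. Irf1 had 4.29, 2.63 and 3.82 CPM in BRM, 21.9, 27.5 and 27.3 CPM after light and 3.57, 2.56 and 2.90 CPM without light. In each gene BRM overlapped no light and lay below light, with log2 fold changes of -3.14, -4.03 and -2.83 (adjusted p = 0.000609, 0.00188 and 0.000536). The promoters come from RefSeq on GRCm38.p6 and the plus strand, at chr11:58199306-58199605 for Igtp, chr11:58214727-58215026 for Irgm2 and chr11:53769764-53770063 for Irf1. Capitals mark TTCNNNGAA, the element of interferon-gamma responses (GAS-type), and GAAA followed after any 2 bases by GAAA, the element of interferon regulatory factors (ISRE-type), both strands searched.
Igtp: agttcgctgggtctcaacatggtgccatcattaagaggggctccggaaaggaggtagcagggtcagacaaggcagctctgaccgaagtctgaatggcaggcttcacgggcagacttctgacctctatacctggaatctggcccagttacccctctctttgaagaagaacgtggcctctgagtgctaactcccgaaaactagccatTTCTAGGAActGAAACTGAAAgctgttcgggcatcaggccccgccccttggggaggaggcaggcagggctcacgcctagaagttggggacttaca
Irgm2: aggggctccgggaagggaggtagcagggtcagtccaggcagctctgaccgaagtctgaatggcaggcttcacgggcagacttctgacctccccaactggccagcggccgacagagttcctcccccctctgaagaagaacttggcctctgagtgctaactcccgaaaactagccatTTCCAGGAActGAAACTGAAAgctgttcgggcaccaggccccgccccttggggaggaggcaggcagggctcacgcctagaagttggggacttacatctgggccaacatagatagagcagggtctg
Irf1: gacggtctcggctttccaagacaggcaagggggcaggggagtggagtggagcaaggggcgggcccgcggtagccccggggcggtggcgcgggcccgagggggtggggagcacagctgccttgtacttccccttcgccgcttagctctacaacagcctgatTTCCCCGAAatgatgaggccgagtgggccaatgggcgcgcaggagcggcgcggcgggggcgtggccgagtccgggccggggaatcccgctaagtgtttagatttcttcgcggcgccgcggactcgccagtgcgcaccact
Igtp and Irgm2 hold 1 match of each kind, which share 0 bases, and Irf1 holds 1 GAS-type match. The GAS-type letters occur in 6 of 23 promoters of the list (26.1%), in 3 of 22 rod promoters and in 8.3% of all 32851. The ISRE-type letters occur in 13 of 23 (56.5%), in 0 of 22 rod promoters and in 3.44% of all.

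Gliosis and acute-phase genes had the largest BRM median of the injury lists described here, and 8 of them are linked to lens RNA. The list holds markers of reactive Müller glia and astrocytes and secreted acute-phase proteins. Of 22 tested genes, 18 rose in light and 12 were lower in BRM than in light, beside 11.4% and 7.32% of all genes. The BRM median against no light was 0.93, against 2.53 in light. In 7 of the 22 the BRM libraries lay wholly above no light, beside 10.2% of all genes. At an unadjusted p under 0.05, 6 were higher (beside 5.61% of all genes), and none was called by edgeR. The 8 lens-linked genes, by the measure given below, left 14 with a median of 0.79. The median was 0.64 with the lens-fibre score as a covariate and 1.59 without no-light replicate 1.

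Gfap, the intermediate filament of astrocytes and reactive Müller glia, had 70.9, 38.5 and 75 CPM in BRM, 264, 285 and 301 CPM after light and 32.2, 19.1 and 21.1 CPM without light. BRM lay wholly above no light and wholly below light, at 1.35 ± 0.60 from no light (95% interval 0.07 to 2.62; adjusted p = 0.295) and -2.20 from light (adjusted p = 0.0244). Lcn2, a secreted iron-siderophore binder, had 4.48, 4.14 and 5.31 CPM in BRM, 25.8, 24.8 and 23.2 CPM after light and 2.42, 1.35 and 1.48 CPM without light, at 1.41 from no light (adjusted p = 0.244). Timp1, an inhibitor of metalloproteinases, had 0.819, 0.782 and 1.12 CPM in BRM, 7.11, 5.99 and 7.0 CPM after light and 0.503, 0.0465 and 0.105 CPM without light, at 2.04 from no light (adjusted p = 0.259). In all 3 genes the BRM libraries were between the other groups with no overlap.

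Cp (ceruloplasmin) and S1pr3, a sphingosine phosphate receptor added after its values were seen, are lens-linked members of the list. Cp had 238, 187 and 286 CPM in BRM, 649, 789.8 and 532 CPM after light and 176, 104 and 106 CPM without light. S1pr3 had 34, 26.9 and 41.8 CPM in BRM, 65.5, 86.2 and 64.8 CPM after light and 26.5, 13.8 and 12.2 CPM without light. In both, no-light replicate 1, rich in lens RNA, was the highest of the no-light libraries. Serpina3n, an acute-phase protease inhibitor and also lens-linked, had 40.1, 10.6 and 28.5 CPM in BRM, 359.8, 326 and 566 CPM after light and 23, 2.09 and 2.37 CPM without light, where replicate 1 stood among the BRM libraries. The part of lens tissue in these values was not tested beyond the covariate.

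**Figure D3:**
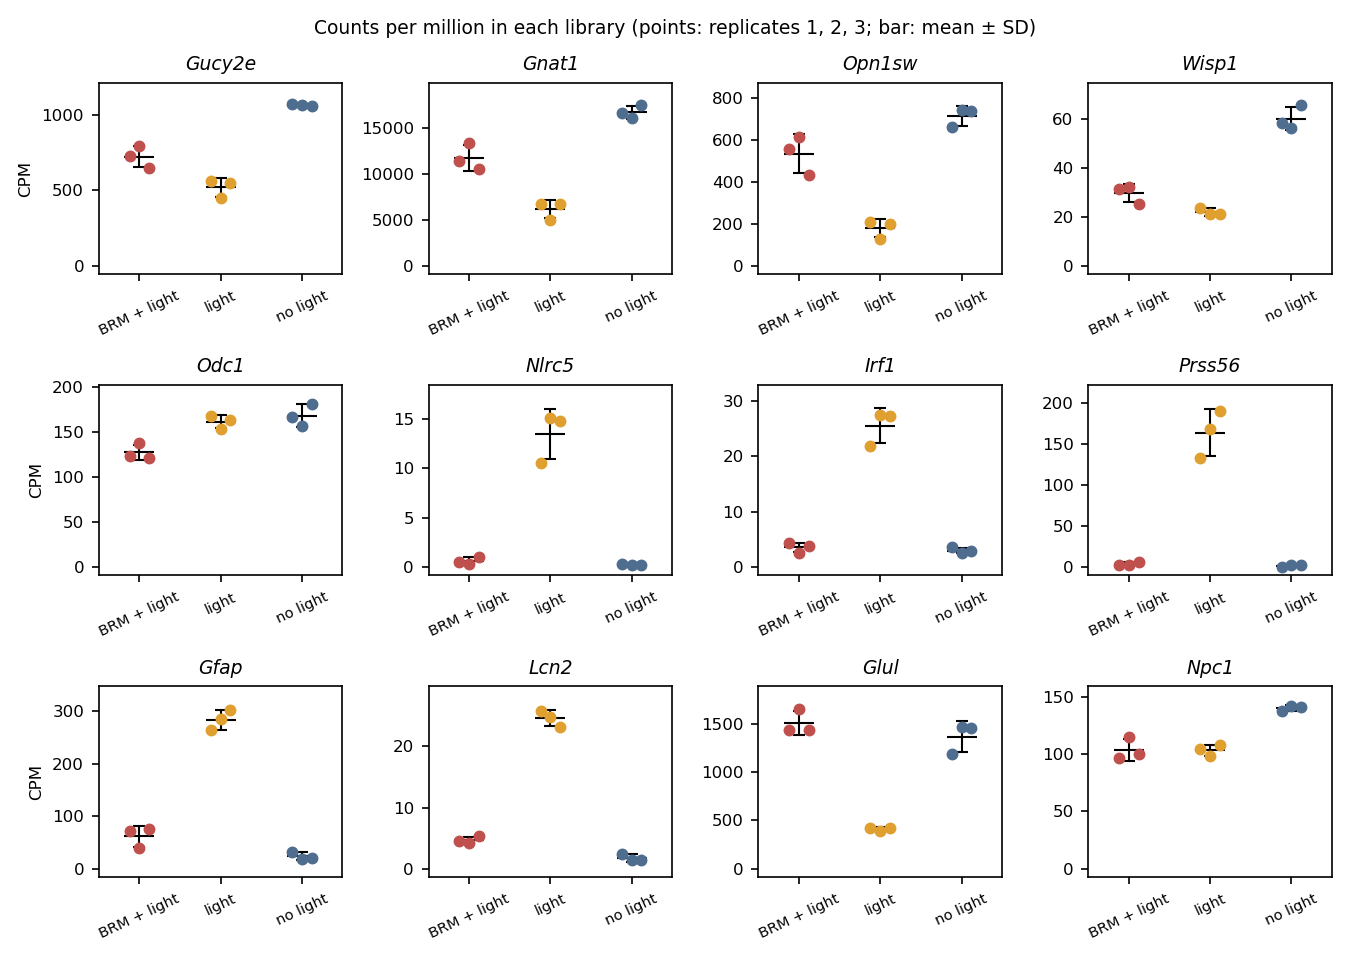
CPM of 12 genes in each BRM, light and no-light library (points are replicates 1 to 3, bars mean ± SD, n = 3 each). Gucy2e, Gnat1 and Opn1sw stood between light and no light, Nlrc5, Irf1, Prss56 and Glul stood near no light, and Wisp1, Odc1 and Npc1 were below no light in every BRM library.

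Photoreceptor and Müller stress factors, STAT3 cytokines and AP-1 factors had smaller medians. Over 15 stress factors the median was 0.58 in BRM and 2.09 in light, over 17 genes of gp130 cytokines and STAT3 0.31 and 1.71, and over 12 AP-1 genes 0.56 and 1.86. BRM was lower than light for 8, 7 and 7 members of these lists and higher for 0, 1 and 0, beside 7.32% and 7.08% of all genes. The BRM libraries lay wholly above no light for 4, 4 and 7 and wholly below for 0, 3 and 0, beside 10.2% and 15.1%. At an unadjusted p under 0.05, 1, 0 and 2 were higher than no light and 0, 2 and 0 lower, beside 5.61% and 9.99%. Some genes belong to more than 1 of the lists. The stress median was 0.32 without BRM replicate 3. The gp130 median was 0.78 without no-light replicate 1, 0.53 without no-light replicate 2 and 0.50 without BRM replicate 2.

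Edn2, an endothelin released by stressed photoreceptors, had 3.13, 4.86 and 5.45 CPM in BRM, 28.6, 32.3 and 30.2 CPM after light and 4.83, 0.883 and 1.16 CPM without light. BRM overlapped no light, where replicate 1 was the highest, and was lower than light (-2.76, adjusted p = 0.0169). Prss56, a secreted serine protease, had 2.89, 2.40 and 6.57 CPM in BRM, 133, 169 and 189 CPM after light and 0.805, 2.18 and 2.42 CPM without light, and was lower than light (-5.36, adjusted p = 0.00363). Bdnf, a neurotrophin, had 12.5, 11.6 and 14.5 CPM in BRM, 18.2, 19.9 and 19 CPM after light and 8.76, 7.85 and 9.17 CPM without light, wholly above no light (0.58, 95% interval 0.19 to 0.98, adjusted p = 0.181). Lif, the gp130 cytokine by which Müller glia answer photoreceptor injury, had 1.20, 0.615 and 1.40 CPM in BRM, 7.49, 11.8 and 9.61 CPM after light and 0.403, 0.325 and 0.158 CPM without light. It was lower than light (-3.15, adjusted p = 0.0219), and its interval against no light ran from -0.26 to 3.94. The stress factor Hbegf, a growth factor for glia, had 9.78, 7.27 and 11 CPM in BRM and 6.80, 7.53 and 6.27 CPM without light, and Cntf, a survival factor for photoreceptors, had 16.1, 9.50 and 16.1 CPM in BRM and 14.6, 2.65 and 4.37 CPM without light.

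Stat3, the transcription factor downstream of gp130, had 76.5, 65.4 and 91.6 CPM in BRM, 228, 229 and 227 CPM after light and 55.3, 45.9 and 40.4 CPM without light, wholly between the groups, at 0.72 from no light (adjusted p = 0.378) and -1.55 from light (adjusted p = 0.0155). Lifr, the LIF receptor, had 92.6, 95.7 and 83 CPM in BRM and 110.0, 102 and 123 CPM without light, wholly below it (-0.30, adjusted p = 0.163). Jak1, a kinase of this pathway, had 149, 145 and 144 CPM in BRM and 151, 169 and 164 CPM without light, also wholly below it. Clcf1, another gp130 ligand, had 1.06, 0.894 and 1.63 CPM in BRM and 0.654, 0.743 and 0.579 CPM without light, and its counts are uncertain because the annotation holds a second copy of the gene on a patch sequence.

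Fos had 10, 12.9 and 15 CPM in BRM, 32.9, 36.6 and 31.6 CPM after light and 6.64, 8.22 and 8.59 CPM without light. Every BRM library was above no light and below light, at 0.69 from no light (adjusted p = 0.436) and -1.41 from light (adjusted p = 0.0321). Fosb had 1.88, 1.45 and 2.24 CPM in BRM and 1.26, 0.836 and 1.0 CPM without light, and Maff, a small MAF factor, 1.64, 1.12 and 2.28 CPM in BRM and 0.755, 0.325 and 0.0527 CPM without light, both without overlap. Jund had 13.8, 13.5 and 17.6 CPM in BRM and 11.4, 11.2 and 6.95 CPM without light, and Jdp2 11.9, 10.7 and 11.1 CPM in BRM and 8.36, 10 and 8.59 CPM without light. Atf3, an early stress factor picked out after its values were seen, had 5.54, 4.47 and 6.29 CPM in BRM, 38.7, 43.6 and 36.1 CPM after light and 4.58, 4.0 and 3.85 CPM without light, and was lower than light (-2.86, adjusted p = 0.00552).

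Among 19 activity-dependent genes the median was 0.22 in BRM and 0.85 in light, and Dusp1, a phosphatase of MAP kinases, had 15.9, 15.9 and 14.6 CPM in BRM and 11, 11.3 and 12.4 CPM without light (adjusted p = 0.123 with edgeR and 0.026 with DESeq2). Egr1, an early gene of neuronal activity added after its values were seen, had 11.2, 12.2 and 13.9 CPM in BRM, 58.4, 74.9 and 58.6 CPM after light and 6.14, 5.62 and 11.5 CPM without light. It overlapped no light and was lower than light (-2.36, adjusted p = 0.00606).

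Genes of NF-kappaB had a median of 0.13 in BRM and 0.48 in light over 12 genes, with libraries wholly above no light for 4 and below for 1 (beside 10.2% and 15.1% of all genes). Relb, a subunit of the alternative pathway, had 4.0, 2.91 and 1.82 CPM in BRM, 4.98, 7.16 and 7.41 CPM after light and 1.21, 0.697 and 1.16 CPM without light. It lay between the groups, 1.51 from no light (95% interval 0.68 to 2.33; adjusted p = 0.123) and -1.16 from light (adjusted p = 0.0427). Nfkb2, the partner of Relb, had 2.55, 1.84 and 2.66 CPM in BRM, 5.19, 7.21 and 8.33 CPM after light and 1.66, 0.929 and 0.948 CPM without light. Tnfaip3, a brake on NF-kappaB, fell after light (-1.71, adjusted p = 7.74e-05) and had 296, 352 and 278 CPM in BRM, 142, 115 and 129 CPM after light and 415, 415 and 431 CPM without light, higher than light by 1.26 (adjusted p = 0.00116).

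Cell death and stress programmes had small medians in BRM. The median was 0.15 over 20 cell death genes (0.81 in light), 0.19 over 13 NRF2 genes (0.43 in light), 0.17 over 15 heat shock genes (0.35 in light) and -0.05 over 15 genes of the integrated stress response (-0.03 in light). Fas, a death receptor, had 0.915, 0.782 and 3.26 CPM in BRM, 4.26, 4.81 and 4.14 CPM after light and 0.705, 0.279 and 0.421 CPM without light, wholly above no light (1.82, adjusted p = 0.249). Bcl2l11, which encodes the death factor BIM, had 19.7, 19.2 and 17.2 CPM in BRM and 23.5, 21.2 and 22.1 CPM without light, wholly below it. Osgin1, an NRF2 target, had 2.07, 1.01 and 1.31 CPM in BRM, 1.36, 1.04 and 2.24 CPM after light and 0.956, 0.325 and 0.263 CPM without light, and Sqstm1, an autophagy receptor, 189, 166 and 187 CPM in BRM, 194, 213 and 224 CPM after light and 147, 163 and 147 CPM without light. Bag3, a cochaperone, had 6.17, 4.58 and 5.45 CPM in BRM and 4.93, 2.37 and 1.95 CPM without light, and Hsp90ab1, a chaperone, 613, 527 and 597 CPM in BRM and 487, 475 and 445 CPM without light. Asns, the asparagine synthetase of the integrated stress response, had 58.4, 57.7 and 55.9 CPM in BRM, 74.8, 80.9 and 74.6 CPM after light and 59, 67.7 and 65.2 CPM without light, lower than light (-0.42, adjusted p = 0.00455) and below every no-light library. Over 8 metallothionein and zinc genes the median was 0.31 in BRM and 0.14 in light.

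Metabolic lists were close to 0, at -0.04 over 27 glycolysis and hypoxia genes (-0.28 in light) and -0.01 over 18 cholesterol genes (0.04 in light). Hk2, the hexokinase of photoreceptors, fell after light and had 499, 613 and 464 CPM in BRM, 308, 244 and 286 CPM after light and 684, 661 and 716 CPM without light. It lay between the groups, -0.39 from no light (adjusted p = 0.239) and 0.91 from light (adjusted p = 0.00191). Of the 27 genes 10 were higher in BRM than in light and 0 lower, beside 7.08% and 7.32% of all genes. Dhcr7, a late enzyme of cholesterol synthesis, had 27.3, 27.8 and 28.2 CPM in BRM and 31.4, 34.3 and 34.8 CPM without light, and Fdps, an earlier one, 52.3, 47.9 and 46.3 CPM in BRM and 54.1, 56.3 and 56.1 CPM without light, each without overlap.

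Chemokine and adhesion genes were mostly lower in BRM than in light. Of 19 listed, 12 passed the filter, with a median of 0.63 in BRM and 2.12 in light. Of the 12, 8 were lower in BRM than in light, beside 7.32% of all genes. BRM lay wholly above no light for 7 and wholly below for 1, beside 10.2% and 15.1% of all genes. The median was 0.37 without BRM replicate 2 and also 0.37 in a fit of the 2 groups alone. Ccl2, which recruits monocytes, had 0.241, 0.279 and 0.559 CPM in BRM, 3.75, 3.35 and 4.68 CPM after light and 0, 0.232 and 0 CPM without light, levels of a few counts per library outside the light group. Cxcl16 had 8.43, 8.78 and 9.32 CPM in BRM and 6.75, 6.78 and 7.22 CPM without light, Csf1, a growth factor of microglia, 5.20, 3.07 and 4.75 CPM in BRM and 2.32, 2.32 and 2.74 CPM without light, and Cx3cl1, the neuronal ligand of microglia, 80.8, 74.4 and 76.1 CPM in BRM and 49.4, 73.1 and 59.2 CPM without light, each without overlap. Il1a ran the other way, with 0.0482, 0.0559 and 0.233 CPM in BRM and 0.302, 0.279 and 0.369 CPM without light.

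Complement and microglia lists had medians of 0.59 and 0.26 in BRM, against 0.79 and 0.37 in light. C1qa, made by microglia, had 5.25, 4.36 and 3.59 CPM in BRM and 3.07, 2.83 and 2.84 CPM without light, and C1qb, its partner chain, had 4.09, 4.19 and 5.03 CPM in BRM and 3.17, 3.11 and 3.0 CPM without light. Both were wholly above no light (adjusted p = 0.251 and 0.245). C3, the central complement component, had 1.69, 1.68 and 2.56 CPM in BRM, 8.81, 7.54 and 7.08 CPM after light and 1.06, 1.02 and 0.632 CPM without light, and Cfi, which inactivates C3b, 0.915, 0.447 and 0.699 CPM in BRM, 4.09, 4.81 and 4.68 CPM after light and 0.403, 0.372 and 0.0527 CPM without light. Both lay between the groups, and both were below light (adjusted p = 0.0059 and 0.0019). Of the 13 complement genes 4 were lens-linked, C3 among them. The complement median was 1.24 without no-light replicate 1, and the microglia median was 0.085 without no-light replicate 2 and 0.084 without BRM replicate 1.

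**Figure D4:**
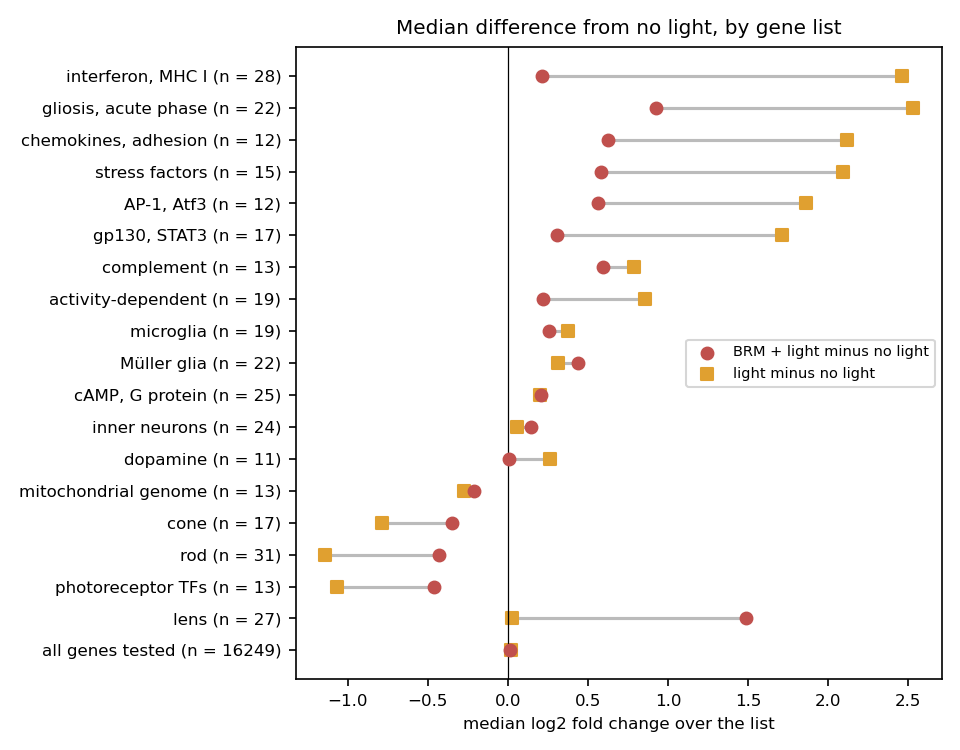
Median log2 fold change against no light over each gene list, in BRM (circles) and in light (squares), with the number of genes tested. The interferon list lies at 0.21 in BRM and 2.46 in light, the gliosis list at 0.93 and 2.53, and the rod, cone and photoreceptor factor lists between -0.46 and -0.35 in BRM.

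Müller glia genes of normal function had positive values for 18 of 22. Their median was 0.44 in BRM and 0.31 in light, 7 had BRM libraries wholly above no light (beside 10.2% of all genes) and 6 were lens-linked. The 16 that were not had a median of 0.25. The median over all 22 was 0.28 without no-light replicate 3 and 0.29 with the lens-fibre score and the replicate block as covariates. Glul, the glutamine synthetase that clears photoreceptor glutamate, had 1434, 1654 and 1432 CPM in BRM, 425, 394 and 419 CPM after light and 1182, 1467 and 1449 CPM without light. BRM overlapped no light (0.14, 95% interval -0.41 to 0.70) and was higher than light by 1.87 (adjusted p = 0.00116). Glul is lens-linked, and no-light replicate 1, rich in lens RNA, was the lowest of the no-light libraries. Sox9, a transcription factor of Müller glia, had 10.3, 10.5 and 13.8 CPM in BRM, 12.9, 16.5 and 15.4 CPM after light and 7.20, 8.87 and 7.11 CPM without light (0.58, adjusted p = 0.165 with edgeR and 0.0485 with DESeq2). Hes1, an effector of Notch, had 14.7, 11 and 14.4 CPM in BRM and 10.3, 6.41 and 6.74 CPM without light, and Apoe, a lipid carrier and lens-linked, 411, 327 and 388 CPM in BRM, 189, 177 and 226 CPM after light and 334, 224 and 179 CPM without light.

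Genes of the dopamine system, on which the drug acts, had values on both sides of no light. Of 14 listed, 13 were found under the listed symbol and 11 were tested (Drd1, Drd3 and Slc6a3 were not). Absence from the test is thus not in each case a low count. In BRM 6 were positive and 5 negative, with log2 fold changes from -0.39 to 0.47 and a median of 0.01, against a median of 0.26 in light. Drd4, the receptor of photoreceptors, had 49, 66.1 and 61.2 CPM in BRM, 19.1, 17.4 and 33.5 CPM after light and 77.8, 84.9 and 56.2 CPM without light. BRM overlapped no light (-0.31, 95% interval -0.98 to 0.36; adjusted p = 0.652) and was higher than light by 1.33 (adjusted p = 0.0138). Drd2 had 11.5, 10.5 and 10.2 CPM in BRM, 8.0, 9.71 and 8.74 CPM after light and 8.66, 12 and 11.5 CPM without light, with a 95% interval of -0.39 to 0.38 against no light. Th, the enzyme that limits dopamine synthesis, had 2.55, 2.57 and 1.63 CPM in BRM and 1.61, 2.23 and 1.0 CPM without light, with overlap. Slc18a2, the vesicle transporter, had 4.24, 3.97 and 4.43 CPM in BRM and 2.16, 3.95 and 3.21 CPM without light, wholly above it (0.44, 95% interval -0.10 to 0.98; adjusted p = 0.419). Maob, which breaks dopamine down, had 3.28, 2.18 and 1.96 CPM in BRM and 2.52, 1.53 and 1.84 CPM without light. Adrb1, the receptor that metoprolol blocks, had 14.3, 15.4 and 13.1 CPM in BRM, 10.6, 9.66 and 8.57 CPM after light and 17.4, 15.5 and 17.2 CPM without light, and was higher than light by 0.57 (adjusted p = 0.0223).

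Genes of cyclic AMP signalling had small values, positive for 20 of 25. The 25 genes had a median of 0.21 in BRM and 0.20 in light, and 8 were higher and 1 lower in BRM at an unadjusted p under 0.05 (beside 5.61% and 9.99% of all genes). Libraries lay wholly above no light for 10 and wholly below for 2, beside 10.2% and 15.1% of all genes. The median was 0.10 without no-light replicate 1. Pde10a, a phosphodiesterase of cyclic nucleotides, had 61.4, 47.6 and 51.7 CPM in BRM, 30.5, 41.7 and 35 CPM after light and 34.5, 40.9 and 43 CPM without light. It was higher in BRM than in light by 0.58 (adjusted p = 0.0122) and stood at 0.44 from no light (adjusted p = 0.179). Rgs2, a brake on G protein signalling, had 34.6, 35.4 and 36.4 CPM in BRM and 28.7, 29.8 and 29.9 CPM without light, Gnai2, an inhibitory G protein subunit, 132, 119 and 139 CPM in BRM and 106, 92.2 and 99.9 CPM without light, and Gnas, the stimulatory subunit, 835, 711 and 760.2 CPM in BRM and 642, 688 and 637 CPM without light, each without overlap. Adcy1, the adenylyl cyclase known for its rhythm in photoreceptors and picked out after its values were seen, had 555, 559.6 and 507 CPM in BRM and 699, 632 and 677 CPM without light, wholly below it (-0.31, adjusted p = 0.231).

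Clock genes, whose retinal rhythm dopamine is known to influence, were called in neither direction by edgeR. Of 19 genes tested, 5 were higher and 2 lower at an unadjusted p under 0.05, beside 5.61% and 9.99% of all genes, so that the count of lower genes was near the share over all genes. Arntl had 70.7, 74.9 and 67.3 CPM in BRM, 63.9, 61.9 and 59 CPM after light and 82.6, 82.5 and 87 CPM without light, and Per2 12.1, 16.4 and 17 CPM in BRM and 9.36, 12.6 and 7.90 CPM without light. Arntl lay wholly below no light (-0.24, adjusted p = 0.16) and Per2 overlapped it (0.61, adjusted p = 0.167), and DESeq2 called both (adjusted p = 0.0488 and 0.0485). Dbp had 66.4, 72.4 and 69.4 CPM in BRM and 49.5, 64.6 and 56.6 CPM without light, wholly above it, and Rora 385, 445 and 378 CPM in BRM and 496, 451 and 511 CPM without light, wholly below it. The hour of collection is not given in the sources used here.

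Inner retinal neuron genes had small values. Of 24 genes 22 had positive values, with a median of 0.14, and 6 had BRM libraries wholly above no light (beside 10.2% of all genes). The median was 0.021 without no-light replicate 1 and 0.24 with the lens-fibre score as a covariate. Slc6a9, the glycine transporter of amacrine cells, had 154, 148 and 149 CPM in BRM, 106, 90.8 and 116 CPM after light and 105, 145 and 92.2 CPM without light. Pcp2, a modulator of G proteins in rod bipolar cells, had 58.5, 76.3 and 74.1 CPM in BRM, 30.7, 35.8 and 38.1 CPM after light and 46, 52 and 54.9 CPM without light, and was higher than light by 1.00 (adjusted p = 0.00423). Transcripts of the mitochondrial genome were all on the low side, with 13 of 13 negative and a median of -0.21 in BRM and -0.27 in light (-0.14 in BRM with the covariate). Among them mt-Nd6 had 62.6, 71 and 58.8 CPM in BRM and 157, 62.7 and 115 CPM without light, with overlap and a wide spread without light. The subunit gene mt-Nd4l had 994, 949 and 968 CPM in BRM and 1226, 1156 and 1493 CPM without light, without overlap (-0.41, adjusted p = 0.153 with edgeR and 0.024 with DESeq2).

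The 10 genes with the smallest p in the comparison were picked out after their values were seen. Of these, 8 were lower and 2 higher in BRM than without light. None of the 10 was lens-linked, beside 3.94% of all genes. Only genes that rise with lens RNA can be lens-linked. Wisp1, a secreted matricellular protein of the Wnt pathway (ENSMUSG00000005124, chromosome 15, 66891320 to 66923201 in GRCm38), had 31.2, 32.2 and 25.3 CPM in BRM, 23.6, 21.1 and 21 CPM after light and 58.2, 56.3 and 65.5 CPM without light. The BRM libraries lay wholly below no light and wholly above light. The log2 fold change was -1.02 ± 0.14 (95% interval -1.32 to -0.72; adjusted p = 0.0502). It was called by limma voom (adjusted p = 0.0412), by edgeR without the filter on low counts (adjusted p = 0.0261) and by DESeq2 (adjusted p = 1.06e-07).

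In several of the 10 the BRM level was close to that after light. Npc1, the lysosomal cholesterol exporter, had 96.6, 115 and 100.2 CPM in BRM, 104, 98.5 and 108 CPM after light and 138, 142 and 142 CPM without light. BRM and light overlapped and both lay below no light, and the 95% interval of BRM minus light was -0.15 to 0.16. Rgs20, a regulator of G proteins, had 40.3, 43 and 36.2 CPM in BRM, 44.8, 42.7 and 43.7 CPM after light and 59.2, 58.2 and 61 CPM without light. Faxc had 59, 65.2 and 58.2 CPM in BRM, 63.1, 59.1 and 57.4 CPM after light and 80.1, 82.8 and 94.7 CPM without light. Arhgap1, a GTPase-activating protein, was above no light, with 55.3, 53.4 and 53 CPM in BRM, 56.6, 59.7 and 56.1 CPM after light and 38.6, 42.1 and 37.1 CPM without light. The intervals of BRM minus light were -0.34 to 0.07 for Rgs20, -0.16 to 0.21 for Faxc and -0.26 to 0.07 for Arhgap1. The adjusted p against no light was 0.0835 for Npc1, Rgs20, Faxc and Arhgap1.

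In other genes BRM stood outside the range of both groups. Odc1, the enzyme that starts polyamine synthesis, had 124, 137 and 122 CPM in BRM, 168, 154 and 163 CPM after light and 167, 156 and 181 CPM without light. It was lower than light (-0.34, adjusted p = 0.00546) and -0.40 from no light (adjusted p = 0.0835 with edgeR and 7.29e-05 with DESeq2), while light and no light overlapped. Cadm2, a cell adhesion molecule, had 305, 328 and 299 CPM in BRM, 409.9, 384 and 381 CPM after light and 379, 410.1 and 401 CPM without light, lower than light (-0.33, adjusted p = 0.00455). Cpt1c, a carnitine palmitoyltransferase of neurons, was above both groups, with 17.4, 18.1 and 18 CPM in BRM, 14.2, 14.9 and 15.4 CPM after light and 12.1, 12.7 and 12 CPM without light, and Cfap61, a gene of cilia, was below both, with 19.4, 19.3 and 15.8 CPM in BRM, 24.2, 22.5 and 25.1 CPM after light and 31.6, 28 and 32.5 CPM without light. Over all genes, 191 (1.18%) were lower than light by the test with BRM libraries also below every no-light library, and 115 (0.708%) were higher than light with BRM libraries above every no-light library. Of the first set 0 and of the second 2 were lens-linked, beside 3.94% of all genes. The measure marks only genes that rise with lens RNA. Whether drug without light would move either set of genes cannot be told, since no such group exists here.

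Lens-linked genes were separated from the rest by the mixture experiment, which shares no library with this comparison. A gene was lens-linked when its count rose with the lens-fibre score of the 12 mixture libraries, in a fit that also held the treatment group, at an adjusted p under 0.05. There were 641 such genes (3.94% of those tested here), beside 15227 without such a link and 381 that were not tested in the mixture experiment. Only rises count as a link. A gene that fell with the score, as 41 did at an adjusted p under 0.05 with edgeR, cannot be lens-linked. With the replicate number as a block 255 genes were lens-linked. The lens-linked genes were nearly all on the high side in BRM, with 632 of 641 positive and a median of 0.86 in BRM against no light. Of the 641, 91 (14.2%) were higher and 0 lower at an unadjusted p under 0.05, and libraries lay wholly above no light for 111 (17.3%) and wholly below for 0. Of the 15227 other genes, with a median of -0.002, 807 (5.3%) were higher at an unadjusted p under 0.05, and libraries lay wholly above for 1519 (9.98%) and wholly below for 2434 (16%). Both sets had 0 calls at an adjusted p under 0.05 with edgeR, and DESeq2 called 3 lens-linked genes, all higher, and 378 others.

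The lens genes themselves did not separate the groups. Over 27 genes the median was 1.49, 26 were positive and 24 were lens-linked, but for none did the BRM libraries lie wholly above no light. Cryaa, a crystallin, had 12031, 8784 and 20854 CPM in BRM, 6032, 5302 and 5609 CPM after light and 9939, 1325 and 1327 CPM without light. Mip, the water channel of lens fibres, had 742, 573 and 1488 CPM in BRM, 430.0, 379.7 and 316 CPM after light and 640.4, 12.6 and 13.1 CPM without light. No-light replicate 1 fell among the BRM libraries in both genes, which were added after their values were seen. The lens-fibre score averaged 6.84 ± 0.90 in BRM and 4.38 ± 1.94 without light (SD, n = 3 each), a difference of 2.46 with a 2-sided exact permutation p of 0.3, where 0.1 is the smallest that 3 against 3 libraries can give. The median of the 27 lens genes was 2.97 without no-light replicate 1 and -0.05 with the score as a covariate. Crybb2 had 3523, 2607 and 7035 CPM in BRM and 2736, 449 and 421 CPM without light, Hsf4, a heat shock factor of the lens, 5.83, 4.47 and 10.5 CPM in BRM and 6.49, 4.04 and 3.85 CPM without light, and Lgsn, a lens protein, 6.50, 19.1 and 261 CPM in BRM and 51.7, 41 and 40.2 CPM without light. Tdrd7, listed for its role in the lens but not lens-linked, had 409.8, 469 and 460.1 CPM in BRM and 589, 488 and 535 CPM without light, wholly below it.

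Matrix and fibroblast genes were often lens-linked. Of 22 tested 12 were lens-linked, with a median of 0.86 over the list and -0.05 over the 9 tested in the mixture experiment that were not. The median over the list was 1.80 without no-light replicate 1, 0.52 without no-light replicate 2, 0.51 without no-light replicate 3 and 0.35 with the lens-fibre score as a covariate. Col18a1, a basement membrane collagen, had 82.7, 40.6 and 81.6 CPM in BRM and 53.5, 16.4 and 10.1 CPM without light. Col9a1, a collagen of the ciliary body and vitreous, had 37.2, 31.7 and 48.1 CPM in BRM and 26, 12.2 and 11.9 CPM without light. Col6a1, which is not lens-linked, had 18.8, 20.2 and 23.4 CPM in BRM and 15.6, 15.3 and 13.7 CPM without light, wholly above it. None of the rod, cone, photoreceptor factor, interferon, cyclic AMP or inner neuron genes was lens-linked, beside 3.94% of all genes. That measure does not mark genes that fall as lens RNA rises, so it does not test a lens share in lowered genes.

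**Figure D5:**
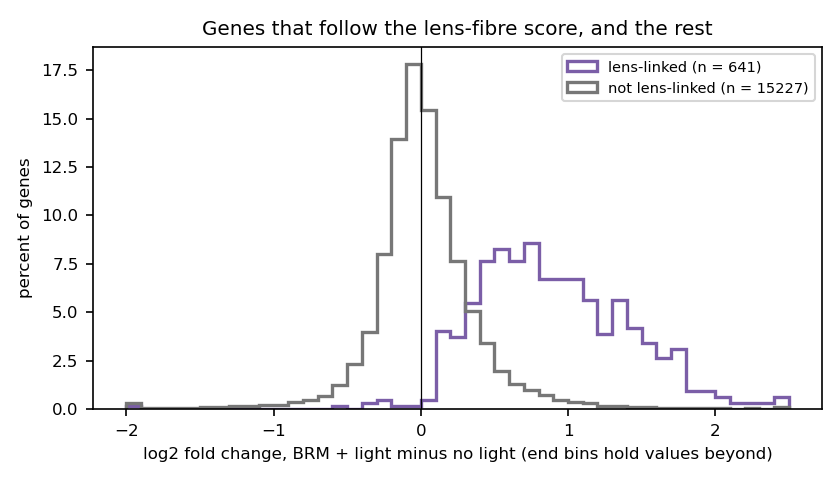
Distribution of the log2 fold change in BRM against no light for 641 lens-linked genes and 15227 others, as percent of each set in bins of 0.1 (end bins hold values beyond the axis). The lens-linked genes have a median of 0.86, and the others a median of -0.002.

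Genes that light changed in the mixture experiment give a view of the light response that no library of this comparison helped to choose. In that experiment light changed 2117 of 16007 genes (13.2%), 1241 up (7.75%) and 876 down (5.47%), and 1310 genes without its light replicate 1 or 1343 without its no-light replicate 3. Those that differed there by at least 2-fold and were tested here were taken as 2 lists. The 554 that light raised had a median of 1.72 there, 1.53 in the light group of the single-drug experiment and 0.33 in BRM, with quartiles of 0.07 and 0.66. In BRM 448 were positive, beside 51.8% of all genes. Libraries lay wholly above no light for 131 and wholly below for 11, beside 10.2% and 15.1% of all genes. At an unadjusted p under 0.05, 61 were higher and 4 lower, beside 5.61% and 9.99%. Against light 328 of the 554 were lower in BRM and 0 higher, beside 7.32% and 7.08% of all genes. The 101 that light lowered had a median of -1.29 there, -1.45 in light and -0.38 in BRM. Of these, 46 were wholly below no light and 5 wholly above, beside 15.1% and 10.2% of all genes. Against light 67 of the 101 were higher in BRM and 0 lower, beside 7.08% and 7.32% of all genes. The 526 raised genes that were not lens-linked had a median of 0.31 and the 97 such lowered genes -0.41.

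The genes with the largest rise in the mixture experiment were low in BRM but not all at the no-light level. Cebpd, a transcription factor of the acute phase, rose there by 5.17 log2 units and had 5.83, 1.90 and 7.97 CPM in BRM, 33.7, 38.2 and 37.3 CPM after light and 2.47, 1.12 and 0.685 CPM without light. Bcl3, a cofactor of NF-kappaB, rose there by 6.16 and had 0.385, 0.447 and 0.466 CPM in BRM, 7.75, 7.40 and 6.63 CPM after light and 0.201, 0.0465 and 0.105 CPM without light. Lad1, an anchoring filament protein, rose there by 5.06 and had 4.0, 2.46 and 6.25 CPM in BRM, 30.7, 28.1 and 34.1 CPM after light and 2.37, 0.790 and 1.0 CPM without light. Bcl3 and Lad1 had BRM libraries wholly above no light, and Cebpd overlapped it. Tnnt2, a muscle troponin, rose there by 5.02 and had 1.78, 1.45 and 2.70 CPM in BRM, 21, 18.1 and 15.5 CPM after light and 1.66, 0.883 and 0.579 CPM without light. All 4 were lower in BRM than in light (adjusted p = 0.0306, 0.0093, 0.0369 and 0.0113). Muc5ac, a secreted mucin, rose there by 8.51 but had 0.0482, 0.112 and 0.699 CPM in BRM, 0.383, 0.377 and 0.207 CPM after light and 0.604, 0.743 and 1.74 CPM without light.

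Among the largest falls of the mixture experiment, Glb1l3, a galactosidase-like gene, had a log2 fold change of -2.34 there and 7.47, 11.8 and 8.72 CPM in BRM, 1.15, 0.660 and 0.953 CPM after light and 10, 12.1 and 11.5 CPM without light. BRM overlapped no light and was higher than light (adjusted p = 0.000633). BC055402, a gene without a known role, had 17.2, 23.5 and 17.2 CPM in BRM, 3.11, 4.43 and 2.15 CPM after light and 11.5, 13.1 and 14.9 CPM without light, so that BRM lay wholly above both groups. Spon2, a lens-linked matrix protein, had 12.2, 12.2 and 15.4 CPM in BRM, 4.26, 3.11 and 3.73 CPM after light and 14, 3.48 and 2.79 CPM without light, with no-light replicate 1 again among the BRM values.

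The other single drugs were given before the same light, and all groups are set against the same no-light libraries. For the 31 rod genes the median was -0.43 in BRM, -0.28 in MTP, -0.20 in TAM and -0.34 in DOX. For the interferon list it was 0.21 in BRM, 0.10 in MTP, 0.46 in TAM and 0.54 in DOX, and for gliosis 0.93 in BRM, 0.82 in MTP, 1.21 in TAM and 1.47 in DOX. For the 554 raised genes it was 0.33 in BRM, 0.29 in MTP, 0.47 in TAM and 0.61 in DOX, and for the 101 lowered genes -0.38 in BRM, -0.30 in MTP, -0.22 in TAM and -0.46 in DOX. Tested directly with edgeR, BRM differed from MTP in 0 genes (0%) and from DOX in 0 (0%), with 1589 (9.78%) and 833 (5.13%) at an unadjusted p under 0.05. DESeq2 called 11 for MTP and 0 for DOX, and limma voom 0 for both. BRM differed from TAM in 18 genes (0.111%), 5 higher (0.0308%) and 13 lower (0.0800%) in BRM, with 3174 at an unadjusted p under 0.05 (19.5%). Mmp12, a macrophage elastase, was lower in BRM than in TAM, with a log2 fold change of -1.27, and Kcnh2, a potassium channel, was higher, with 0.76. These genes were picked out after their values were seen. The calls against TAM fell to 0 without any 1 BRM library or without TAM replicate 3, and to 5 without TAM replicate 1.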

How the data were processed

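Retinal RNA was extracted with Trizol and sequenced from poly(A)-selected, stranded (dUTP) libraries, per the labels. Trimmomatic, Bowtie2, TopHat2, eXpress, edgeR and limma and the build GRCm38.p3 are named without roles or versions in the submitters' processing notes. The authors deposited estimated counts per transcript from eXpress, which were summed per gene and rounded, and FPKM values per transcript (log2 of FPKM plus 1), used only as an alternative. The 18 single-drug libraries were fitted together with edgeR 4.0.16 (R 4.3.3, TMM, filterByExpr, quasi-likelihood F test), and adjusted p-values cover all genes tested. DESeq2 1.42.0, limma 3.58.1, other scaling, no filter, a lens-fibre covariate and each library left out were alternatives. CPM use a prior count of 1 on log scales. Method recovery was tested on simulated data. Libraries were grouped by their labels. The comparison, gene lists and tests were chosen with earlier results of these data known. Genes named are the 8 largest rises and 6 largest falls of light in the mixture experiment, the 4 smallest p of each list described, and a short list always named. Others are stated as added after their values were seen. The authors' tables of called genes and mixture FPKM were not used here. Some listed genes are counted in their lists but not reported here by name.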

Additional observations from a re-analysis of the deposited data

Results flagged for a closer look

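The level of 18 genes differed between bromocriptine and tamsulosin, each given before light, at an adjusted p under 0.05 (edgeR). Of these genes, 5 were higher and 13 lower after bromocriptine. The log2 differences, BRM minus TAM, were 0.56 for Cpt1c, -0.44 for Npc1, -0.42 for Odc1 and -0.84 for Wisp1. Against no light, a comparison that shares the 3 BRM libraries, they were 0.54, -0.43, -0.40 and -1.02 in the same order. The number of calls fell to 0 without TAM replicate 3, without any 1 of the BRM libraries, and under 6 other settings listed below. TAM replicate 1 was the shallowest library of the experiment, with 12.0 M counts. TAM replicate 2 stood nearer to the light libraries than the other TAM libraries, with a mean of 2.75 log2 CPM over the genes that light raised in the mixture experiment, against 1.69 and 1.61 in TAM replicates 1 and 3. The part of these libraries in the calls was not tested beyond leaving each out.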

How the results depend on the processing

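Between BRM and no light edgeR called 0 genes under RLE scaling, the lens-fibre covariate, a fit of the 2 groups alone and each library left out, 1 without the filter on low counts, 1 with limma voom, 1 transcript with FPKM and 381 with DESeq2. Among genes not lens-linked these last 4 gave 1, 1, 1 and 378. Between BRM and MTP DESeq2 called 11 genes and FPKM 1 transcript. Between BRM and TAM the 18 calls became 0 without the filter, with the replicate block, with the covariate, with covariate and block, in the 2 groups alone and with voom, 759 with DESeq2, and 0 to 15 with 1 library left out. Between BRM and DOX the 2 groups alone gave 2. Calls with 1 library left out numbered 910 to 2491 for BRM against light, 2550 to 3605 for light against no light and 1310 to 2781 for light in the mixture experiment. RLE scaling gave 1287 higher and 1050 lower genes for BRM against light, beside 1151 and 1190. The lens-linked set held 255 genes with the replicate block and 280 with a slope of at least 0.25. The median of the raised genes in BRM was 0.15 without a fold minimum, and 0.28 to 0.45 with 1 library left out (-0.48 to -0.32 for the lowered genes). The lens-fibre score differed by 1.86 to 3.58 with 1 library left out. The cause of these changes was not tested.

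Of 166 named genes, of which edgeR called none, 28 were called under DESeq2, where 6003 of all genes had no adjusted p, and 49 moved by more than 1 SD without no-light replicate 1. Same-numbered BRM and no-light libraries deviated together with r of 0.15, 0.13 and -0.07, and 1 of 3 BRM libraries correlated best with its own number. With 3 libraries a group this check cannot tell whether the numbers pair the samples. The fit with the replicate block called 0 genes against no light. List medians under each alternative were added after seeing the data. FPKM for the mixture experiment was not run. At this depth and with 3 libraries a group, the 95% interval lay within 1.5-fold for 54.2% of genes.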

Other observations

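The genes here were chosen after their values were seen. Krt5 and Krt14, keratins of surface epithelium and not linked to the lens score, were lower in BRM than without light by the estimate, at -2.10 and -3.16 on the log2 scale, with overlapping libraries. Krt5 ran from 0.47 to 9.06 CPM over the 6 libraries. Most genes of the ciliary and iris list, whose lowest value was -3.16, went the other way, with 10 of 14 positive and a median of 0.74. At an unadjusted p under 0.05, 3 of the 14 were higher and 3 lower, beside 5.61% and 9.99% of all genes. Libraries lay wholly above no light for 5 of the 14 and wholly below for 0, beside 10.2% and 15.1% of all genes, and 7 were lens-linked. Hmox1, the heme oxygenase induced by oxidative stress, had 4.24, 4.42 and 21.4 CPM in the BRM libraries and 6.64, 6.04 and 5.74 CPM without light. The value of BRM replicate 3, the library richest in lens RNA, stood above the other libraries of both groups. Slc26a7, listed with the pigment epithelium, rose after light but overlapped no light in BRM.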
